A study of Homo sapiens with 12 samples.

Results

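A set of 9 enzyme genes of amino acid metabolism linked to the transcription factor ATF4 was followed across gambogenic acid treatment and NRF2 knockdown in a cisplatin-resistant lung cancer line. They were ASNS, PYCR1, ALDH18A1, CTH, CBS, GPT2, GOT1, BCAT1 and PCK2, chosen by symbol, and all 9 were found among the 61510 genes of the deposited tables. All 9 were also among the 15653 genes with enough counts to be tested. The rule names genes and uses no measured value, but the genes were chosen with earlier results of these data known, so their counts below are a description.

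The cells were A549/DDP, which descend from A549, a human lung adenocarcinoma line, and resist cisplatin. Every group, controls included, was grown in medium with 1 µg/ml cisplatin (DDP). The 4 groups of 3 libraries each were shNRF2 GNA, shNRF2 DMSO, shNC GNA and shNC DMSO. The shNRF2 line carried a short hairpin RNA against NRF2, the regulator of antioxidant genes encoded by NFE2L2, and the shNC line carried a control hairpin. GNA is gambogenic acid, a caged xanthone from gamboge resin, given at 4 µM for 24 h to cells at 70% confluence, with DMSO as its vehicle. There was 1 line for each hairpin, and the labels do not say whether a line was a clone or a pool, so an effect of the hairpin and a difference between 2 lines cannot be told apart. No label ties the 3 libraries of a group to separate cultures. The p-values therefore cover only the spread among these libraries, which may be technical.

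ATF4 is translated preferentially when cells are short of amino acids or under endoplasmic reticulum or mitochondrial stress. Together with C/EBP partners it binds C/EBP-ATF response elements and turns on genes for making, importing and charging amino acids. NRF2 has been reported to act upstream of ATF4 on serine synthesis genes in lung cancer lines. ASNS makes asparagine from aspartate. ALDH18A1 and PYCR1 carry out the first and the last steps from glutamate to proline. CBS and CTH pass sulfur from homocysteine to cysteine. GPT2, GOT1 and BCAT1 are transaminases for alanine, aspartate and the branched-chain amino acids, and PCK2 is the mitochondrial enzyme that turns oxaloacetate into phosphoenolpyruvate.

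Library totals ran from 12848607 to 17192671 counts. Library shNC DMSO 1 stood apart from the other 2 of its group. Its chi-square distance to them, per degree of freedom, was 8.02 and 6.3, while the other 2 were 3.73 apart and pairs in the other groups 2.28 to 5.3. Results that rest on it are given with and without it. NFE2L2 was lower in the shNRF2 line than in the shNC line both under GNA (log2 fold change -0.93 ± 0.064, SE) and in DMSO (-0.64 ± 0.064), with edgeR adjusted p-values of 9e-12 and 1.2e-08. The epithelial markers KRT8 and KRT18 were abundant in every library, while KRT19 held 0 to 2 counts per library. Summed markers of alveolar type 2 cells, endothelium and leukocytes did not exceed 0.634 CPM in any library, and those of fibroblasts ran from 6.96 to 9.57 CPM. The summed epithelial markers, nearly all KRT8 and KRT18, were lower in every GNA library (9720 to 10300 CPM) than in every DMSO library (14800 to 15700 CPM). Of the other tested markers of this list, CDH1 was at 0.07 under GNA in shNRF2 (log2 fold change, edgeR adjusted p = 0.54) and rose by 0.46 in shNC (adjusted p = 7.2e-05). CDH1 was also higher in shNRF2 than in shNC, by 0.56 under GNA and 0.95 in DMSO, and EPCAM was called in none of these comparisons. The part of these shifts in the results below was not tested. In bulk RNA, fewer cells of a type and less RNA per cell cannot be told apart.

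The RefSeq promoter table (GRCh38.p14, from 250 bases before to 50 after each start) held 14 windows for 7 of the 9 genes; PYCR1 and GPT2 were not matched. The core of the C/EBP-ATF element, searched as TGATGNAA on both strands, was found in 3 of the 14 windows, those of ASNS, GOT1 and BCAT1. The surrounding 40 bases are shown because the matched letters are those to which ATF4 and its partners are known to bind, with the match in capitals and each sequence read 5′ to 3′ on the strand that carries it.
ASNS: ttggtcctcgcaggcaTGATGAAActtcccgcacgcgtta
GOT1: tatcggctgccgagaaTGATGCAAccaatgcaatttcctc
BCAT1: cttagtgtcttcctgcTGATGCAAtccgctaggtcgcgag
These stretches lie at chr7:97872453-97872492 (minus strand) for ASNS, chr10:99430799-99430838 (plus strand, opposite to the gene) for GOT1 and chr12:24949126-24949165 (minus strand) for BCAT1. The matches begin 68, 198 and 48 bases before the RefSeq start that each window is built on. In GENCODE 29, whose gene models start further upstream, all 3 lie inside the gene. Of all 35116 promoter windows of this length, 3.62% held the core. The core of the antioxidant response element that NRF2 is known to bind (TGACNNNGC, both strands) was found in 1 member window, that of CBS, against 13.3% of all windows. A core of the heat shock element (GAANNTTC, which reads the same on both strands) was found in the windows of ASNS and BCAT1, against 6.77% of all windows, and in ASNS it overlapped the C/EBP-ATF core. A match is a description of letters only.

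On the FPKM scale, which divides by gene length and so allows levels of different genes to be compared, PYCR1 was the most abundant of the enzymes. It averaged 29.4 FPKM in shNRF2 GNA, 20.7 in shNRF2 DMSO, 21.8 in shNC GNA and 11.5 in shNC DMSO. GOT1 came next in every group, at 18.1, 13.5, 15.3 and 11.5 FPKM in the same group order, and the libraries of GOT1 and PYCR1 overlapped in shNC DMSO. ASNS was the lowest in every group, at 0.879, 0.387, 0.758 and 0.174 FPKM in that order, with CTH and CBS above it. ASNS shares 44.6% of its exon bases with another row, and CBS has a near-identical copy, both described below. How shared reads were counted is not stated, so the levels and places of ASNS and CBS are uncertain. The order also rests on the fixed gene length behind each value. That length was 2886 bases for PYCR1, 11415 for BCAT1 and 6786 for CBS, against 2495 for the copy of CBS. CBS and CTH overlapped in every group except shNC DMSO. PCK2 held the third place in both GNA groups, at 12.0 FPKM in shNRF2 and 9.79 in shNC, and the sixth place in both DMSO groups, at 4.48 and 2.13 FPKM. In shNC GNA the libraries of PCK2 and BCAT1 overlapped.

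**Figure D1:**
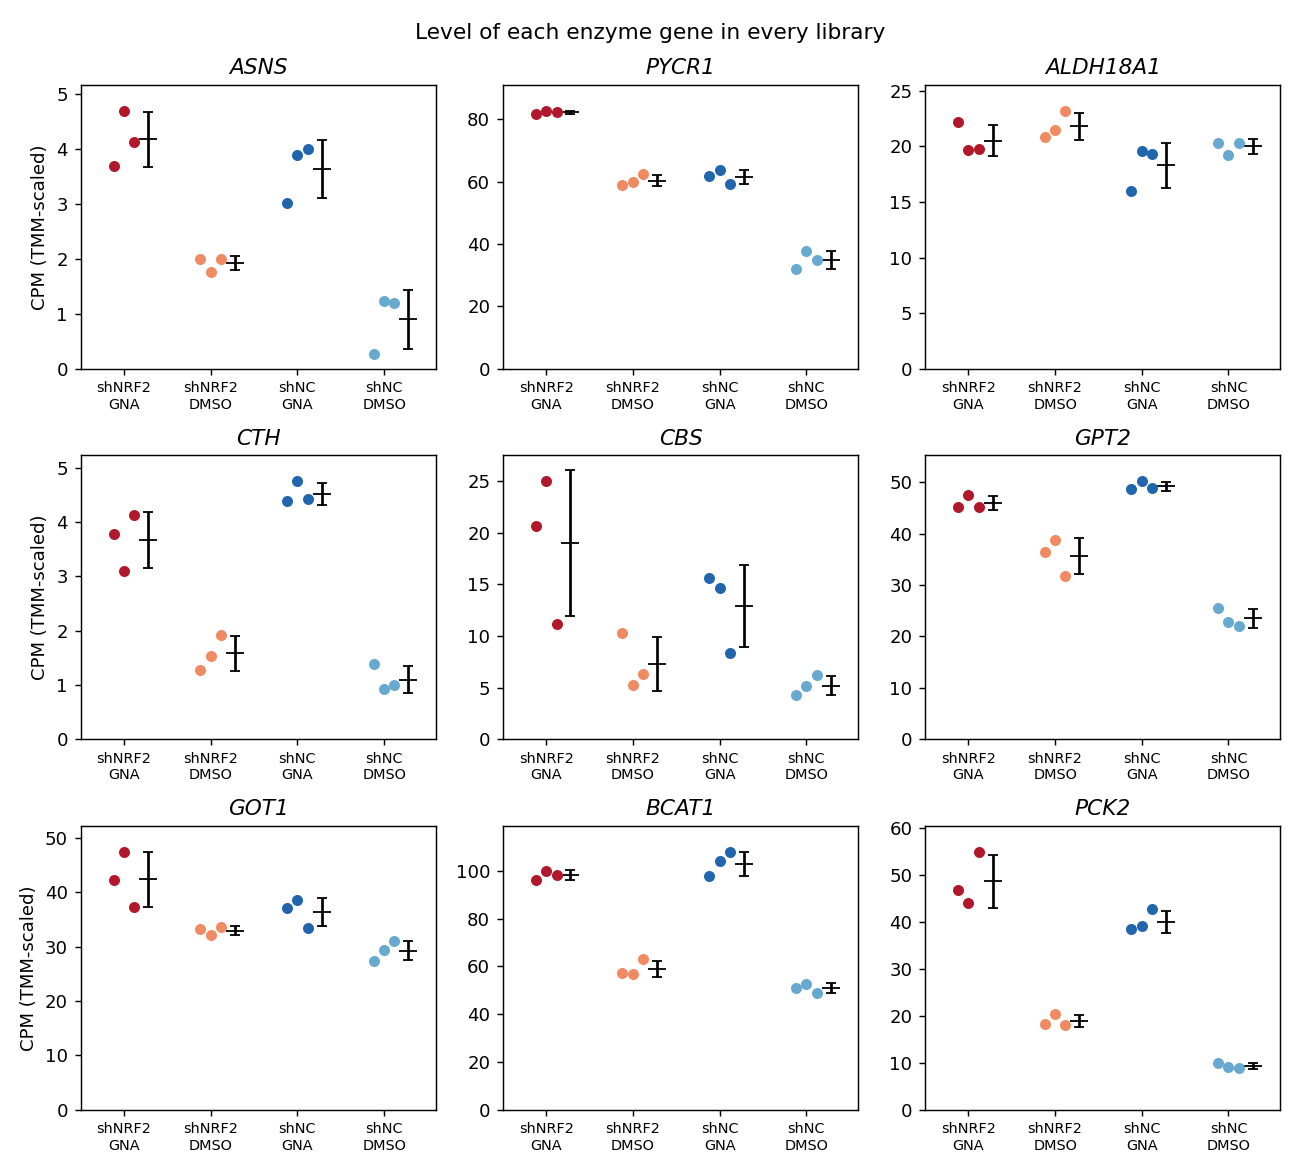
Level of the 9 enzyme genes in every library, in CPM (counts over the TMM-scaled library size) on axes that start at 0 and differ between genes. Points are libraries, and the bars beside them are mean ± SD of 3. All GNA libraries lie above the DMSO libraries of the same line for every gene except ALDH18A1.

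Gambogenic acid against DMSO was compared within each line. In the shNRF2 line 8 of the 9 genes rose under GNA and none fell, with a median log2 fold change of 0.74 over the 9 genes against 0.01 over all tested genes. In the shNC line 8 of the 9 rose and none fell, with a median of 1.07 against 0.02. ALDH18A1 was the member that did not pass the test in either line. Of all tested genes, 16.7% were called higher and 17% lower in the shNRF2 line, and 14.6% higher and 16.1% lower in the shNC line. In the same 8 genes all 3 GNA libraries lay above all 3 DMSO libraries in both lines, which held for 22.8% of all tested genes in the shNRF2 line and 20.5% in the shNC line. No member was lower at an unadjusted p under 0.05 in either line, and none was called lower by DESeq2 or limma. Calls are from edgeR's quasi-likelihood test at a Benjamini-Hochberg adjusted p under 0.05 over all tested genes.

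PCK2, the mitochondrial phosphoenolpyruvate carboxykinase, was among the enzymes with the largest log2 fold changes under GNA in both lines. The gene lies on chromosome 14 at 24094053 to 24110598 (GRCh38, GENCODE 29, plus strand). Its level was 46.8, 44.0 and 54.9 CPM in the shNRF2 GNA libraries, against 18.3, 20.4 and 18.1 CPM in shNRF2 DMSO. In the shNC line it was 38.4, 39.0 and 42.7 CPM under GNA, against 9.99, 9.08 and 8.91 CPM in DMSO. The groups did not overlap in either line, and every library of shNRF2 DMSO lay above every library of shNC DMSO. The log2 fold change under GNA was 1.36 ± 0.089 in the shNRF2 line (SE, edgeR adjusted p = 1.9e-12). In the shNC line it was 2.10 ± 0.098 (adjusted p = 6.6e-15), a 4.3-fold rise that ranked 50 among the 15653 tested genes.

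Of the sulfur transfer pair, CTH, which releases cysteine from cystathionine, held few counts (chromosome 1, 70411218 to 70439851, plus strand). It had 50, 49 and 67 counts in the shNRF2 GNA libraries, against 20, 20 and 25 in shNRF2 DMSO. It had 61, 77 and 72 counts in shNC GNA, against 20, 15 and 15 in shNC DMSO. Every GNA library lay above every DMSO library of its line. CTH rose by 1.22 ± 0.24 in the shNRF2 line and by 2.04 ± 0.24 in the shNC line on the log2 scale (edgeR adjusted p = 0.00022 and 2.8e-07).

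CBS, which forms cystathionine from serine and homocysteine, had the widest spread within a group of the 9 in 3 of the 4 groups, all but shNC DMSO (chromosome 21, 43053191 to 43076943, minus strand). It had 275, 395 and 182 counts in shNRF2 GNA, against 160, 69 and 83 in shNRF2 DMSO. It had 217, 239 and 136 counts in shNC GNA, against 62, 84 and 94 in shNC DMSO. The GNA libraries lay above the DMSO libraries in both lines, but the lowest GNA library of the shNRF2 line had 11.2 CPM and the highest DMSO library of that line 10.3 CPM. The within-group coefficient of variation of its CPM was 37.2% in shNRF2 GNA, 36% in shNRF2 DMSO, 30.8% in shNC GNA and 18.6% in shNC DMSO. CBS rose by 1.35 ± 0.24 in shNRF2 and by 1.30 ± 0.26 in shNC (log2, edgeR adjusted p = 7.2e-05 and 0.00033).

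A near-identical copy of CBS on the same chromosome, CBSL (chromosome 21, 6444869 to 6468040 on GRCh38), has a row of its own, and how the authors' counting treated reads shared by the copies is not given in the sources used here. CBSL held 59, 14 and 33 counts in shNRF2 GNA, against 11, 40 and 44 in shNRF2 DMSO, and 23, 67 and 51 counts in shNC GNA, against 16, 18 and 29 in shNC DMSO. In the shNRF2 line the library with the most CBS counts had the fewest CBSL counts, both under GNA and in DMSO. In the shNC line the library with the most CBS counts also had the most CBSL counts, in both treatments. With the counts of CBS and CBSL added together, the rise under GNA was 1.13 ± 0.2 in shNRF2 and 1.27 ± 0.21 in shNC (log2, edgeR adjusted p = 4.8e-05 and 3.5e-05).

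ASNS, the lowest of the 9 on the FPKM scale, also held few counts. It had 49, 74 and 67 counts in shNRF2 GNA, against 31, 23 and 26 in shNRF2 DMSO. It had 42, 63 and 65 counts in shNC GNA, against 4, 20 and 18 in shNC DMSO. The 4 counts stood in shNC DMSO 1, the library that stood apart. ASNS rose by 1.12 ± 0.27 in the shNRF2 line and by 1.99 ± 0.3 in the shNC line (log2, edgeR adjusted p = 0.0018 and 1.1e-05). Without shNC DMSO 1 the rise in the shNC line was 1.59 (adjusted p = 4.9e-05).

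The ASNS gene (chromosome 7, 97852118 to 97872542, minus strand, GENCODE 29 on GRCh38) shares its strand and 44.6% of its exon bases with the gene model ENSG00000284707, which spans it. That row held 89, 102 and 97 counts in shNRF2 GNA, against 111, 89 and 88 in shNRF2 DMSO. It held 54, 102 and 91 counts in shNC GNA, against 57, 53 and 82 in shNC DMSO. It thus held more counts than ASNS itself in every library, and ASNS made up 6.56% to 43.8% of the sum of both rows. For ENSG00000284707 itself, the change under GNA was -0.12 ± 0.18 in shNRF2 and 0.34 ± 0.19 in shNC (log2), with edgeR adjusted p-values of 0.67 and 0.2. With both rows added together, an alternative chosen after seeing the data, the change under GNA was 0.26 ± 0.16 in shNRF2, which did not pass the test (edgeR adjusted p = 0.22), and 0.81 ± 0.17 in shNC (adjusted p = 0.00049). How reads in the shared exons were assigned is not stated, so the ASNS values are uncertain.

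**Figure D2:**
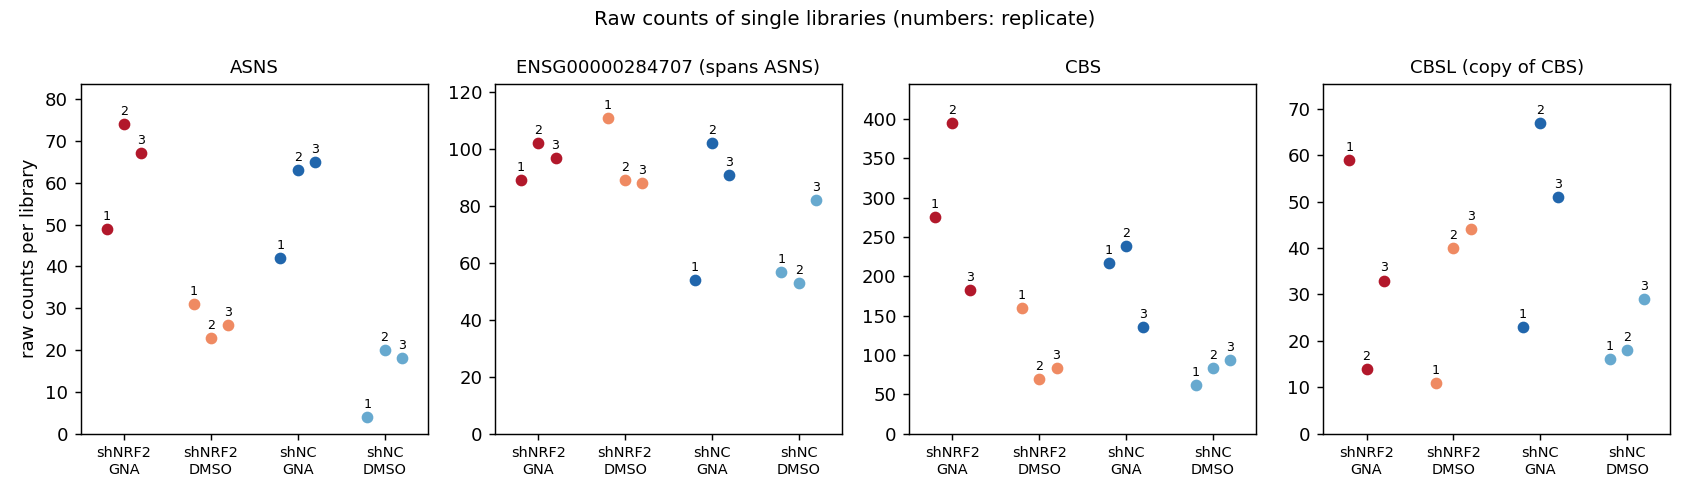
Raw counts per library of ASNS, of the ENSG00000284707 row that spans it, of CBS and of its copy CBSL, with replicate numbers beside the points and axes that start at 0. ASNS held 4 counts in shNC DMSO 1, and the spanning row held more counts than ASNS in each of the 12 libraries.

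Among the transaminases, GPT2, the mitochondrial alanine transaminase (chromosome 16, 46884378 to 46931297, plus strand), had 45.2, 47.5 and 45.2 CPM in shNRF2 GNA, against 36.4, 38.7 and 31.8 CPM in shNRF2 DMSO. It had 48.6, 50.2 and 48.9 CPM in shNC GNA, against 25.6, 22.9 and 22.0 CPM in shNC DMSO. The GNA libraries were above the DMSO libraries in both lines, by a wider gap in the shNC line. GPT2 rose by 0.37 ± 0.076 in shNRF2 and by 1.07 ± 0.078 in shNC (log2, edgeR adjusted p = 0.00037 and 3.6e-11).

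BCAT1, the cytosolic branched-chain transaminase (chromosome 12, 24810022 to 24949459, minus strand), had 96.2, 100 and 98.4 CPM in shNRF2 GNA, against 57.2, 56.7 and 62.9 CPM in shNRF2 DMSO. It had 97.9, 104 and 108 CPM in shNC GNA, against 51.1, 52.8 and 49.0 CPM in shNC DMSO. It rose by 0.74 ± 0.06 in shNRF2 and by 1.02 ± 0.061 in shNC (log2, edgeR adjusted p = 1.6e-10 and 7.5e-13). GOT1, the cytosolic aspartate transaminase (chromosome 10, 99396870 to 99431569, minus strand), rose in both lines. It ranged over 37.4 to 47.5 CPM in shNRF2 GNA, against 32.1 to 33.7 CPM in shNRF2 DMSO, and over 33.5 to 38.6 CPM in shNC GNA, against 27.4 to 31.0 CPM in shNC DMSO. Its log2 fold change was 0.36 ± 0.084 in shNRF2 and 0.31 ± 0.085 in shNC (edgeR adjusted p = 0.0013 and 0.0059). A divergent transcript on the opposite strand, GOT1-DT, covers 651 exon bases of GOT1 and held 7 to 18 counts per library, and whether counting used strand is not stated.

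Both enzymes at the ends of proline synthesis were measured. PYCR1, which makes proline (chromosome 17, 81932384 to 81942412, minus strand), had 81.7, 82.8 and 82.4 CPM in shNRF2 GNA, against 58.9, 59.9 and 62.5 CPM in shNRF2 DMSO. It had 61.8, 63.8 and 59.2 CPM in shNC GNA, against 32.1, 37.9 and 34.9 CPM in shNC DMSO. The shNRF2 DMSO and shNC GNA libraries covered nearly the same range. PYCR1 rose by 0.45 ± 0.063 in shNRF2 and by 0.82 ± 0.066 in shNC (log2, edgeR adjusted p = 2.3e-06 and 2.7e-10).

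ALDH18A1, which makes the precursor pyrroline-5-carboxylate from glutamate (chromosome 10, 95605929 to 95656706, minus strand), ranged over 19.7 to 22.2 CPM in shNRF2 GNA, against 20.8 to 23.2 CPM in shNRF2 DMSO. It ranged over 16 to 19.6 CPM in shNC GNA, against 19.2 to 20.3 CPM in shNC DMSO. The groups overlapped in both lines. Its log2 fold change under GNA was -0.09 (95% interval -0.28 to 0.11, edgeR adjusted p = 0.51) in shNRF2 and -0.12 (-0.32 to 0.07, adjusted p = 0.37) in shNC. The upper ends of these intervals lie below the GNA response of PYCR1 in the same line.

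**Figure D3:**
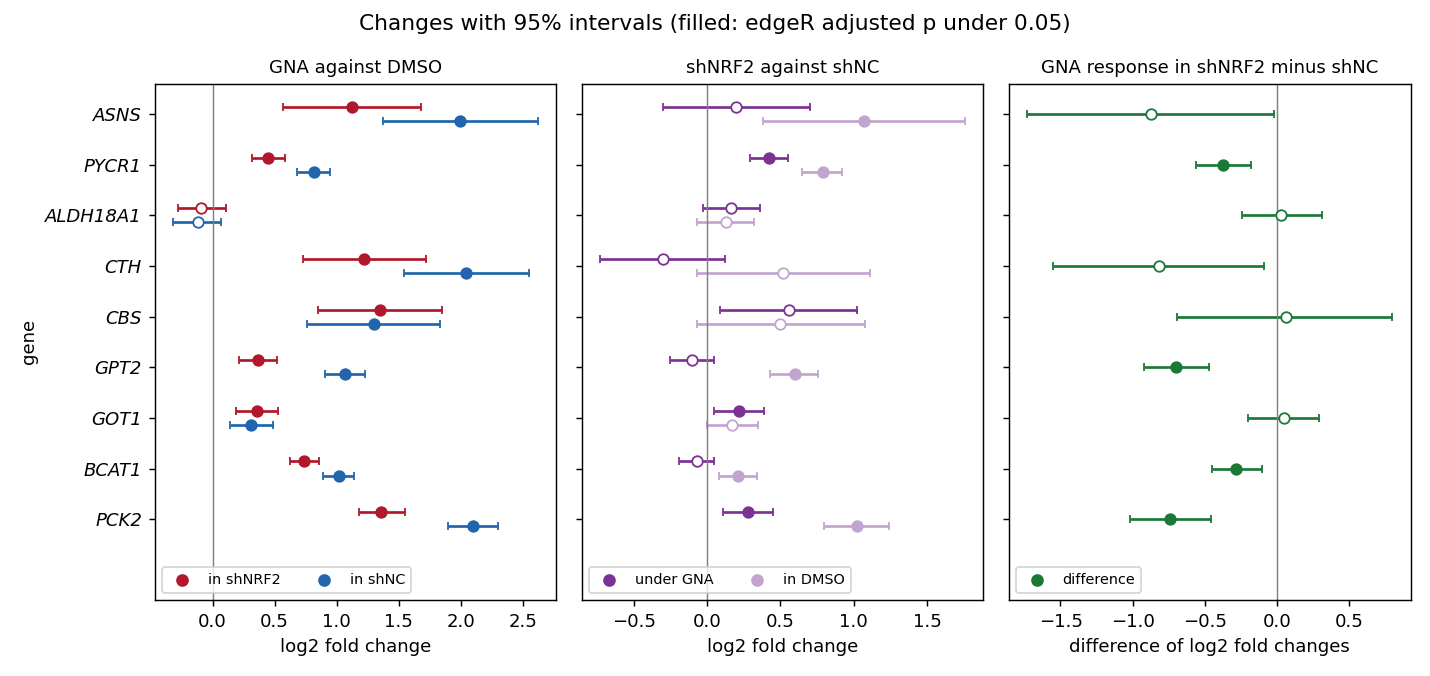
Log2 fold changes of the 9 genes with 95% intervals, for GNA against DMSO in each line (left), shNRF2 against shNC in each treatment (middle) and the GNA response in shNRF2 minus that in shNC (right). Filled points passed the edgeR test at an adjusted p under 0.05. The 4 filled points on the right, for PYCR1, GPT2, BCAT1 and PCK2, lie between -0.74 and -0.28.

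The size of the GNA response was compared between the lines with the interaction contrast. The response was smaller in the shNRF2 line than in the shNC line for 4 of the 9 genes and larger for none, against 3.24% of all tested genes called with a smaller response and 3.58% with a larger one. No member had a larger response in shNRF2 at an unadjusted p under 0.05, or by DESeq2 or limma. PCK2 differed by -0.74 ± 0.13 and GPT2 by -0.70 ± 0.11 (log2, edgeR adjusted p = 0.00078 and 0.00014). PYCR1 differed by -0.37 ± 0.091 (adjusted p = 0.012). BCAT1 differed by -0.28 ± 0.085 with an adjusted p of 0.048, and this call was lost in 14 of 21 alternatives, including no filter on low counts (adjusted p = 0.077). CTH (-0.82, 95% interval -1.55 to -0.09) and ASNS (-0.87, -1.73 to -0.02) had larger differences with wide intervals that missed the threshold after adjustment (edgeR adjusted p = 0.18 and 0.24). For ASNS, leaving out shNC DMSO 1 moved the difference to -0.47 (adjusted p = 0.49). The differences of CBS (0.06, -0.69 to 0.80), GOT1 (0.05, -0.20 to 0.29) and ALDH18A1 (0.03, -0.24 to 0.31) did not pass the test.

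The shNRF2 line was then set against the shNC line within each treatment. These comparisons share their DMSO and GNA libraries with those above, so the values are given side by side. In DMSO 5 of the 9 genes were higher in shNRF2 and none was lower, with a median log2 fold change of 0.52 against 0.01 over all tested genes, of which 16.8% were called higher and 18.3% lower. They were PYCR1 at 0.79 ± 0.067, PCK2 at 1.02 ± 0.11, GPT2 at 0.60 ± 0.08, BCAT1 at 0.21 ± 0.063 and ASNS at 1.07 ± 0.34, with edgeR adjusted p-values of 5e-10, 2.1e-08, 1.4e-06, 0.011 and 0.015. The ASNS call was lost without shNC DMSO 1 (0.65, adjusted p = 0.09), and the BCAT1 call without shNC DMSO 3 (adjusted p = 0.059) or shNRF2 DMSO 3 (adjusted p = 0.073). The ENSG00000284707 row by itself was higher in shNRF2 by 0.72 ± 0.19 (adjusted p = 0.0043). The sum of that row and ASNS, of which ASNS was 20.5% to 22.8% in shNRF2 DMSO and 6.56% to 27.4% in shNC DMSO, was higher by 0.79 ± 0.17 (adjusted p = 0.0006). All 3 shNRF2 libraries lay above all 3 shNC libraries for 7 of the 9 genes, against 21.3% of all tested genes, the 2 that overlapped being CTH and CBS.

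Under GNA 3 of the 9 genes were higher in shNRF2 than in shNC and none was lower, against 12.8% of all tested genes called higher and 13.3% lower, and the median log2 fold change was 0.20 against 0.01 over all tested genes. PYCR1 was higher by 0.42 ± 0.062 (edgeR adjusted p = 9.5e-06) and kept that call in all 16 alternatives. PCK2 was higher by 0.28 ± 0.082 (adjusted p = 0.012), a call lost without shNC GNA 1 (0.25, adjusted p = 0.054), shNC GNA 2 (0.26, 0.051) or shNRF2 GNA 3 (0.18, 0.15). GOT1 was higher by 0.22 ± 0.083 at an adjusted p of 0.049, its libraries overlapped, and the call was lost in 11 of 16 alternatives with values from 0.13 to 0.31. GPT2, at -0.10 (95% interval -0.25 to 0.05), and BCAT1, at -0.07 (-0.19 to 0.05), did not pass the test, and these intervals do not hold a rise of the size each showed in DMSO. CTH was at -0.30 and CBS at 0.56 (adjusted p = 0.31 and 0.07). CBS ran from 0.30 to 0.84 over 16 alternatives and was called in 4 of them, among these without shNC GNA 1 (0.71, adjusted p = 0.04) and without shNRF2 GNA 3 (0.84, adjusted p = 0.004). In neither treatment was a member lower in shNRF2 at an unadjusted p under 0.05, or by DESeq2 or limma. The shNRF2 libraries lay all above the shNC libraries for 3 genes, PYCR1, ALDH18A1 and PCK2, against 21.2% of all tested genes. They lay all below for 2, CTH and GPT2, against 19.7% of all tested genes.

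On the FPKM scale ATF4 itself averaged 156 in shNRF2 GNA, 139 in shNRF2 DMSO, 155 in shNC GNA and 122 in shNC DMSO, above each of the enzymes. It had 392 to 396 CPM in shNRF2 GNA, against 362 to 372 CPM in shNRF2 DMSO, and 394 to 400 CPM in shNC GNA, against 322 to 342 CPM in shNC DMSO. All GNA libraries lay above the DMSO libraries of their line. The log2 fold change of ATF4 under GNA was 0.10 ± 0.043 in shNRF2, which did not pass the test (edgeR adjusted p = 0.071), and 0.25 ± 0.043 in shNC (adjusted p = 5.5e-05). The difference between the lines was -0.15 ± 0.06 (adjusted p = 0.16). ATF4 is controlled largely at translation, which RNA levels do not show.

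Other genes of the same pathways were described by list, with no test of a list. Of 9 regulators of the stress response, 6 rose and none fell under GNA in shNRF2, and 8 rose and none fell in shNC. NUPR1, a stress-induced cofactor of transcription, rose by 1.81 ± 0.064 in shNRF2 and by 2.23 ± 0.07 in shNC, and DDIT3, which encodes CHOP, rose by 2.18 ± 0.078 and 2.05 ± 0.085 in that line order. TRIB3, a pseudokinase that restrains ATF4, rose by 1.61 ± 0.098 in shNRF2 and by 1.49 ± 0.1 in shNC. These values are log2 fold changes from edgeR, all with adjusted p-values under 0.05. By the interaction contrast the response of 1 of the 9 regulators was larger in shNRF2, and that of 2 was smaller. The difference was 0.42 ± 0.063 for PPP1R15A, -0.79 ± 0.22 for CEBPB and -0.41 ± 0.096 for NUPR1 (edgeR adjusted p = 8e-05, 0.027 and 0.008).

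Of 7 enzymes of serine synthesis and one-carbon metabolism, 6 rose in shNRF2 and all 7 in shNC, with list medians of 0.53 and 0.81. ALDH1L2, a mitochondrial folate enzyme, rose by 1.34 ± 0.055 in shNRF2 and by 1.89 ± 0.057 in shNC. PSAT1 and PHGDH, enzymes of serine synthesis, rose by 0.58 ± 0.054 and 0.46 ± 0.057 in shNRF2, against 1.23 ± 0.055 and 1.17 ± 0.059 in shNC. The GNA response of 4 of the 7 was smaller in shNRF2 by the interaction contrast, and none was larger. For PHGDH the difference was -0.71 ± 0.081, for PSAT1 -0.65 ± 0.077 and for ALDH1L2 -0.55 ± 0.079 (log2, edgeR adjusted p = 1.4e-06, 2.5e-06 and 4.2e-05). In DMSO 5 of the 7 were higher in shNRF2 than in shNC and none was lower. PHGDH was higher there by 0.86 ± 0.059, ALDH1L2 by 0.70 ± 0.059 and PSAT1 by 0.47 ± 0.056 (edgeR adjusted p = 8.6e-12, 4.8e-10 and 1.8e-07). Under GNA 3 of the 7 were higher in shNRF2 and 1 was lower. PHGDH and ALDH1L2 were at 0.15 ± 0.056 and 0.15 ± 0.052, and PSAT1 at -0.17 ± 0.052 (adjusted p = 0.045, 0.03 and 0.015).

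Of 8 tested amino acid transporters, 6 rose and 1 fell in shNRF2, and 7 rose and none fell in shNC. SLC1A4, a neutral amino acid transporter, rose by 1.18 ± 0.15 in shNRF2 and by 1.48 ± 0.16 in shNC. SLC6A9, a glycine transporter, rose by 0.79 ± 0.17 in shNRF2 and by 1.21 ± 0.19 in shNC (log2, edgeR adjusted p = 0.00078 and 1.4e-05), and its difference between the lines, -0.42 ± 0.26, did not pass the test (adjusted p = 0.39). By the interaction contrast 3 of the 8 transporters had a smaller response in shNRF2, and none a larger one. The difference was -0.95 ± 0.21 for SLC7A5, -0.49 ± 0.12 for SLC7A1 and -0.35 ± 0.068 for SLC7A11 (edgeR adjusted p = 0.0065, 0.014 and 0.0019). SLC7A5 varied widely in shNC GNA, at 323 ± 135 CPM (SD). Of 12 cytosolic aminoacyl-tRNA synthetases, which charge tRNAs, 11 rose and none fell in each line, with medians of 0.41 in shNRF2 and 0.57 in shNC. GARS1, the glycyl-tRNA synthetase, rose by 0.81 ± 0.045 in shNRF2 and by 0.86 ± 0.045 in shNC. Its difference between the lines, -0.05 ± 0.064, did not pass the test (edgeR adjusted p = 0.72). The response of 3 of the 12 synthetases was smaller in shNRF2 by the interaction contrast, and none was larger. For EPRS1 the difference was -0.42 ± 0.06, for CARS1 -0.25 ± 0.068 and for AARS1 -0.25 ± 0.068 (edgeR adjusted p = 4.9e-05, 0.022 and 0.028).

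Genes next to the enzymes in metabolism did not move in a single direction. Of 10 tested genes of the methionine cycle, cysteine use and sulfide oxidation, 3 rose and 4 fell in shNRF2, and 3 rose and 3 fell in shNC. CHAC1, which degrades glutathione, averaged 5.73 ± 0.837 CPM in shNRF2 GNA against 2.11 ± 0.334 CPM in shNRF2 DMSO, and 4.15 ± 0.467 CPM in shNC GNA against 0.46 ± 0.314 CPM in shNC DMSO (SD, n = 3). Of 11 partners in aspartate, malate and citric acid cycle metabolism, 2 rose and 5 fell in shNRF2, and 3 rose and 6 fell in shNC. PC, which makes the oxaloacetate that PCK2 uses, fell by 0.91 ± 0.1 in shNRF2 and by 0.41 ± 0.11 in shNC on the log2 scale (edgeR adjusted p = 7.7e-08 and 0.0039). MDH1, the cytosolic malate dehydrogenase, fell by 0.46 ± 0.08 in shNRF2 and by 0.48 ± 0.078 in shNC (adjusted p = 4.7e-05 and 2.6e-05). IDH1 and ME1, cytosolic enzymes that make NADPH, rose by 0.70 ± 0.057 and 0.65 ± 0.06 in shNRF2, against 0.33 ± 0.055 and 0.31 ± 0.056 in shNC. Their response was larger in shNRF2 by the interaction contrast, by 0.37 ± 0.079 and 0.35 ± 0.082 (edgeR adjusted p = 0.0046 and 0.0094). For PC, which fell further in shNRF2, the difference was -0.50 ± 0.15 (adjusted p = 0.038). ASL, the argininosuccinate lyase, was at 0.18 ± 0.14 in shNRF2, which did not pass the test (adjusted p = 0.33), and rose by 0.52 ± 0.14 in shNC (adjusted p = 0.0046). Its difference between the lines, -0.33 ± 0.19, did not pass the test either (edgeR adjusted p = 0.35).

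**Figure D4:**
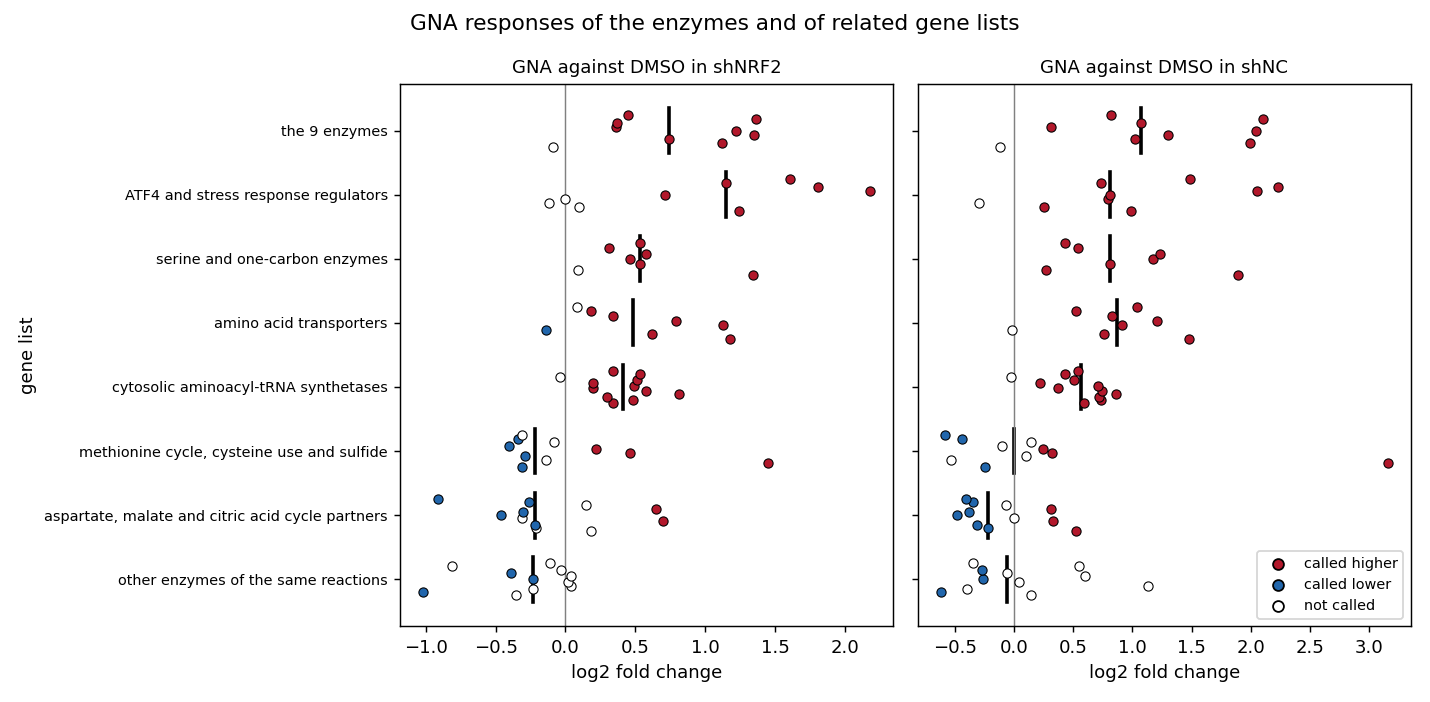
Log2 fold changes under GNA of the 9 enzymes and of 7 related gene lists, in shNRF2 (left) and shNC (right). Each point is a tested gene, red where called higher, blue where called lower and white where not called, and the vertical bar is the median of the list. The medians of the 9 enzymes are 0.74 in shNRF2 and 1.07 in shNC, and those of the other enzymes of the same reactions are -0.23 and -0.06.

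Other enzymes of the same or opposing reactions were set beside the 9. Of 11 that were tested and are reported here, 3 fell under GNA in shNRF2 and 3 in shNC by the edgeR test, and the others did not pass it. GOT2, the mitochondrial aspartate transaminase, fell by 0.23 ± 0.074 in shNRF2 and by 0.26 ± 0.073 in shNC on the log2 scale (edgeR adjusted p = 0.019 and 0.0081), while the cytosolic GOT1 rose in both lines. BCAT2, the mitochondrial branched-chain transaminase, was at -0.23 ± 0.18 in shNRF2 and -0.40 ± 0.18 in shNC, and did not pass the test (adjusted p = 0.36 and 0.1). PYCR3, another pyrroline-5-carboxylate reductase, was at -0.11 ± 0.2 in shNRF2 and -0.35 ± 0.2 in shNC, neither past the test (adjusted p = 0.73 and 0.19). GPT, the other alanine transaminase, was at 0.04 ± 0.3 and 0.60 ± 0.32 in that line order (adjusted p = 0.94 and 0.17). ASRGL1, which breaks down asparagine, fell by 1.02 ± 0.14 in shNRF2 and by 0.62 ± 0.13 in shNC (adjusted p = 1.9e-06 and 0.00068). PCK1, the cytosolic counterpart of PCK2, was too low to test, with 24 counts in all over shNRF2 GNA, 18 over shNRF2 DMSO, 21 over shNC GNA and 20 over shNC DMSO.

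**Figure D5:**
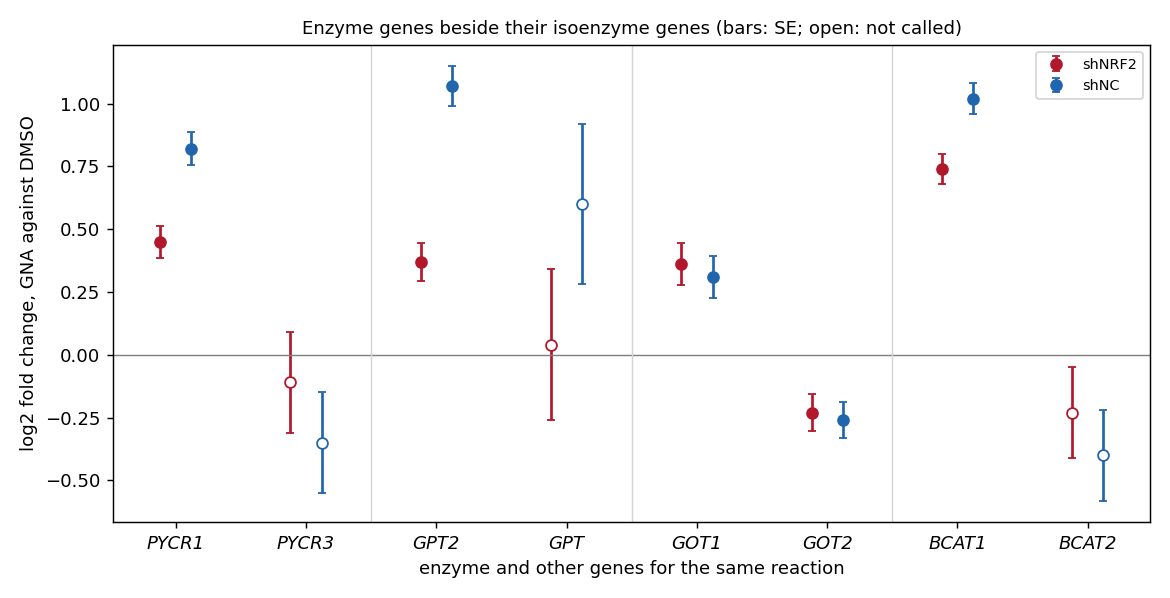
Log2 fold change under GNA, with SE, of PYCR1, GPT2, GOT1 and BCAT1 beside other genes for the same reaction, in shNRF2 and shNC. Open points did not pass the edgeR test. GOT1 and GOT2 lie on opposite sides of 0 in both lines, at 0.36 and -0.23 in shNRF2 and at 0.31 and -0.26 in shNC.

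For each enzyme the 3 tested genes with the most similar pattern were found by the root mean square difference of centred log2 CPM over the 12 libraries. For PCK2 they were ALDH1L2 at 0.158, NUPR1 at 0.231 and AKNA at 0.268. For CTH they were STC2 at 0.221, ALDH1L2 at 0.255 and PCK2 at 0.325, the only case in which a member was among the 3 nearest of another. For BCAT1 they were GARS1 at 0.0963, GPRASP1 at 0.0966 and CEBPG at 0.103. PYCR1 was nearest to ENSG00000271254 at 0.0966, TRPM4 and HSPA13, and GPT2 to CRNDE at 0.115, HERC2P2 and PYROXD2. The smallest value was 0.366 for ASNS, with PRDM4-AS1, and 0.261 for CBS, with LINC01480. GOT1 was nearest to PISD at 0.0703 and ALDH18A1 to QSER1 at 0.0633, in patterns that were themselves nearly flat, with a root mean square of 0.214 and 0.127.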

How the data were processed

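Total RNA of 12 libraries was sequenced on an Illumina platform, per the labels' protocols. The authors deposited raw counts per gene and FPKM values for 61510 genes. Per the submitters' processing notes the build was GRCh38 and DESeq2 was used, in a role not stated. The sources used here name no aligner, counting tool, annotation or strand setting. In 100% of 13402 genes checked (tolerance 0.001) the deposited FPKM equalled the count over the library total and a fixed gene length. FPKM served for levels between genes.

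Genes were filtered with filterByExpr (minimum count 10, total 15), scaled with TMM, then tested in edgeR 4.0.16 (quasi-likelihood, 1 coefficient per group, 8 residual degrees of freedom) in R 4.3.3 for 5 contrasts. An exact permutation test of 3 against 3 cannot go below 0.1. DESeq2 1.42.0 and limma 3.58.1 were alternatives, beside other scalings, filters, a replicate block and leaving out each library. Members and lists were chosen with earlier results of these data known. Named from the lists were up to 3 called genes with the largest change; the rest, such as the other genes for the members' reactions, were chosen after their values were seen. The symbol CBSL was given to its Ensembl ID through GENCODE 29. Some genes of a list are not reported here.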

Additional observations from a re-analysis of the deposited data

Results flagged for a closer look

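The GNA response differed between the shNRF2 and the shNC line by the interaction contrast (edgeR adjusted p under 0.05) for 4 of the 9 enzymes, in each case with a smaller response in shNRF2. Of all tested genes, 3.24% were called with a smaller response and 3.58% with a larger one. The difference was -0.74 on the log2 scale for PCK2, -0.70 for GPT2, -0.37 for PYCR1 and -0.28 for BCAT1. The BCAT1 call (edgeR adjusted p = 0.048) was lost in 14 of 21 alternatives. In the same 4 genes the level in DMSO was higher in shNRF2 than in shNC. All 4 use the shNC DMSO and the shNRF2 DMSO libraries in both values, so the second is not independent of the first. Without shNC DMSO 1, the library that stood apart, the differences were -0.79, -0.76, -0.31 and -0.28 in that gene order. The cause was not tested.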

How the results depend on the processing

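No value of the 9 enzymes changed direction past the threshold under any alternative. The 8 rises under GNA in each line kept their calls in all 16 alternatives of scaling, filter, test, block and libraries. The sum of ASNS and ENSG00000284707 was not called under GNA in shNRF2 (0.26), and with CBSL added no call of CBS changed. Calls that were lost are named beside their results. With TGATGNAAT in place of TGATGNAA, 1 member window, that of BCAT1, held the C/EBP-ATF core, against 0.991% of all windows. CBS was called higher in shNRF2 without a low-count filter, both under GNA (0.55, adjusted p = 0.0002) and in DMSO (0.51, 0.011). In DMSO GOT1 was called higher in shNRF2 in 3 of 16 alternatives, among them library totals in edgeR (0.23, adjusted p = 0.038). CTH was called higher there in 1, limma on log2(FPKM + 0.1) (0.49, adjusted p = 0.049).

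Scaling to library totals, in place of TMM, moved the median of all genes by 0.10 for GNA in shNC and the share of calls that were higher to 69.7%, against 47.5%; the enzymes stayed above that shift except ALDH18A1. In shNRF2 the share moved to 61.6%, against 49.6%, for shNRF2 against shNC in DMSO to 58.7%, against 47.9%, and for the difference to 38.1%, against 52.5%. It called 1542 genes lower for GNA in shNC, against 2526, and limma on log2(FPKM + 1) and log2(FPKM + 0.1) called 1430 and 1417. For the difference limma called 301 higher and 356 lower with a pseudocount of 1 and 274 and 329 with 0.1, against 561 and 507.

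The replicate numbers gave no pairing. Deviations from the group means correlated above 0.1 in 0 of 18 same-numbered pairs, and 2 of the 12 libraries were closest to a library of their own number. With the replicate block, GOT1 in shNRF2 against shNC under GNA (0.22, adjusted p = 0.054) and the BCAT1 difference (-0.28, 0.063) were not called, and CBS under GNA was (0.55, 0.038). The low counts of ASNS and CTH limit their precision.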
